A study of Homo sapiens with 12 samples.

Results

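The 9 genes described here are known targets of retinoic acid or vitamin D receptors, with the caudal homeobox genes CDX1 and CDX2 among them. They were chosen by name and are RARRES1, RARRES2, RARRES3 (PLAAT4 in the current annotation), TGM2, ZNF703, NRIP1, CYP24A1, CDX1 and CDX2. Of 54675 probe sets on the array, 17 were annotated to these genes alone, and of 19775 genes tested all 9 had a probe set of their own. The RNA was from H9, a widely used human embryonic stem cell line, at passages 28 to 35. In all 4 groups, the untreated cells included, the cells carried a construct that expresses GCNF when doxycycline (Dox) is present. GCNF is an orphan nuclear receptor encoded by NR6A1. Day 6 arrays labelled Dox came from cells kept for 6 days in DMEM/F12 with 15% FBS and 1 µg/ml Dox. Day 6 arrays labelled RA came from the same medium with 1 µM retinoic acid in place of Dox. The d0 with Dox group was undifferentiated cells in mTeSR given 1 µg/ml Dox for 4 days, and the d0 group was the same cells with no treatment. Each group held 3 arrays. A day 6 group with neither agent and Dox-treated cells without the construct were not analysed here, so time, medium and agent cannot be told apart between day 6 and d0, nor Dox and the induced receptor within d0. Replicates are titled biological, but the labels do not say whether each came from its own culture, and p-values then measure only a spread between arrays that may be technical.

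Retinoic acid binds retinoic acid receptors, and the active form of vitamin D binds the vitamin D receptor. Both kinds of receptor pair with a retinoid X receptor on DNA, where the bound ligand turns target genes on. The core of most such sites is a repeat of the letters AGGTCA or a near match, and GCNF is known to bind 2 copies of AGGTCA with no base between them. In early embryos and in stem cells given retinoic acid, targets of this kind are among the first genes to respond, and CDX genes set posterior identity in the embryo and intestinal identity later. Signals below are probe set intensities on a linear scale, given as mean ± SD over 3 arrays. Differences are differences of group means of log2(intensity + 16) ± SE, and a fold is the antilog of such a difference. A gene rose or fell only where limma's test over all 12 arrays gave an adjusted p under 0.05 over all genes.

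The bases just before the transcription start are shown for 4 genes, as the place where such receptor motifs could be looked for. They are the genes of this set that have entries in the RefSeq promoter table used here (assembly GRCh38.p14). Each sequence is the 250 bases before the start, written 5′ to 3′ on the gene's strand. All 4 genes lie on the minus strand. Capitals mark a receptor motif, which was searched on both strands as AGGTCA, as its near match GGGTCA, as AGTTCA and also as GGTTCA. The windows are chr3:158732458-158732707 for RARRES1, chr7:150341630-150341879 for RARRES2, chr21:15065937-15066186 for NRIP1 and chr13:27969316-27969565 for CDX2.
RARRES1: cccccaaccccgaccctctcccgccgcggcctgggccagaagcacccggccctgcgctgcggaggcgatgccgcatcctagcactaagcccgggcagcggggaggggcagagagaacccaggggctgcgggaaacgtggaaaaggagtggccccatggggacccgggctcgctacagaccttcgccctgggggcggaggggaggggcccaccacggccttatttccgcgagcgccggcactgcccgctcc
RARRES2: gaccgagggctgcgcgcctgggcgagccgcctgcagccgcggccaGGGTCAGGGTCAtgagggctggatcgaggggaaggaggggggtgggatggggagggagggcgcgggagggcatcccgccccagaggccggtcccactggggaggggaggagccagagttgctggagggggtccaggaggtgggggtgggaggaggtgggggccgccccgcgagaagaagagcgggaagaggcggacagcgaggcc
NRIP1: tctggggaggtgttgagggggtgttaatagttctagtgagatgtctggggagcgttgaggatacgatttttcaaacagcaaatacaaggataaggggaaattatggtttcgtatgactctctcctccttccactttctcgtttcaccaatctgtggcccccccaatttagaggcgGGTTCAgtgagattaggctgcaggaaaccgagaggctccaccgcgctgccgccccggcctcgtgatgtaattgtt
CDX2: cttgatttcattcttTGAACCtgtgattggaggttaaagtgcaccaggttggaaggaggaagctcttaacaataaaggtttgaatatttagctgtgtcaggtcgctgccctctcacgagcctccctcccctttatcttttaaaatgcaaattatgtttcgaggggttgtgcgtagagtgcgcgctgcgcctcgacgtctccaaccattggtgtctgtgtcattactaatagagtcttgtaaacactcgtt
The RARRES2 window held 2 motifs, the first beginning 205 bases before the start and the other 199, so they form a direct repeat with 0 bases between. A direct repeat of these motifs with no spacer was found in 0.145% of 35116 promoter windows of the same length, and with a spacer of 0 to 5 bases in 0.478%. NRIP1 had 1 motif 75 bases before the start shown, and its other 2 starts in the table had none. CDX2 had 1 motif on the other strand, 235 bases before the start, and RARRES1 had none. A single motif was present in 33.8% of all windows, so its presence sets none of these genes apart. A match describes the letters only, and no binding was measured.

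The induction and the day 6 labels were checked first. Of 7 NR6A1 probe sets, the one with the largest difference at d0 read 615 ± 40.8 in d0 with Dox against 26.8 ± 17.6 in d0 (3.96 ± 0.30, limma adjusted p over all probe sets 6.36e-05). At day 6 that probe set went against the labels, at 29.2 ± 13.7 in arrays labelled Dox against 336 ± 70.9 in arrays labelled RA (-2.99 ± 0.30, adjusted p = 0.000109). The probe set with the strongest signal was instead higher in arrays labelled Dox (1009 ± 223 against 528 ± 37.8). Of the 7 probe sets, 3 were called lower and 3 higher in arrays labelled Dox than in those labelled RA. Against d0, the 3 higher ones were lower in arrays labelled Dox (-0.54, -0.77 and -0.64, each with an adjusted p under 0.05). The 3 lower ones were higher than d0 in arrays labelled RA, by 3.09, 2.11 and 1.63. CYP26A1 and CYP26B1, the enzymes that break down retinoic acid and are known to be induced by it, were also high where the label says Dox. CYP26A1 read 29594 ± 1005 in arrays labelled Dox and 271 ± 37.0 in arrays labelled RA. Every day 6 direction below therefore rests on labels that these genes go against, and the groups are called by their labels only. Replicate arrays correlated at r = 0.980 to 0.982, and no pair held identical values. The ratio of 3' to 5' signal of ACTB, a sign of RNA quality, was 2.33 ± 0.058 in day 6 arrays labelled Dox, 2.59 ± 0.290 in those labelled RA, 3.86 ± 0.0111 in d0 with Dox and 3.24 ± 0.139 in d0. For GAPDH the ratio was 1.46 ± 0.023, 1.35 ± 0.082, 1.62 ± 0.055 and 1.53 ± 0.058 in the same order of groups. The part of RNA quality in the results was not tested.

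At day 6, 6 of the 9 genes were higher in arrays labelled Dox than in arrays labelled RA, and 0 were lower. RARRES2, CYP24A1, ZNF703, RARRES1, NRIP1 and TGM2 rose, by 41.8-fold down to 2.71-fold, while PLAAT4, CDX1 and CDX2 did not pass the test. Over all genes, limma called 13.7% higher and 12.2% lower in this comparison. The median difference of the 9 genes was 1.65, against 0.00 over all genes tested. In bulk RNA, fewer cells of a type and less RNA per cell cannot be told apart, here and in all results below. In the same 6 genes the 3 arrays of each group did not overlap, which was so for 41.6% of all genes in either direction.

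**Figure D1:**
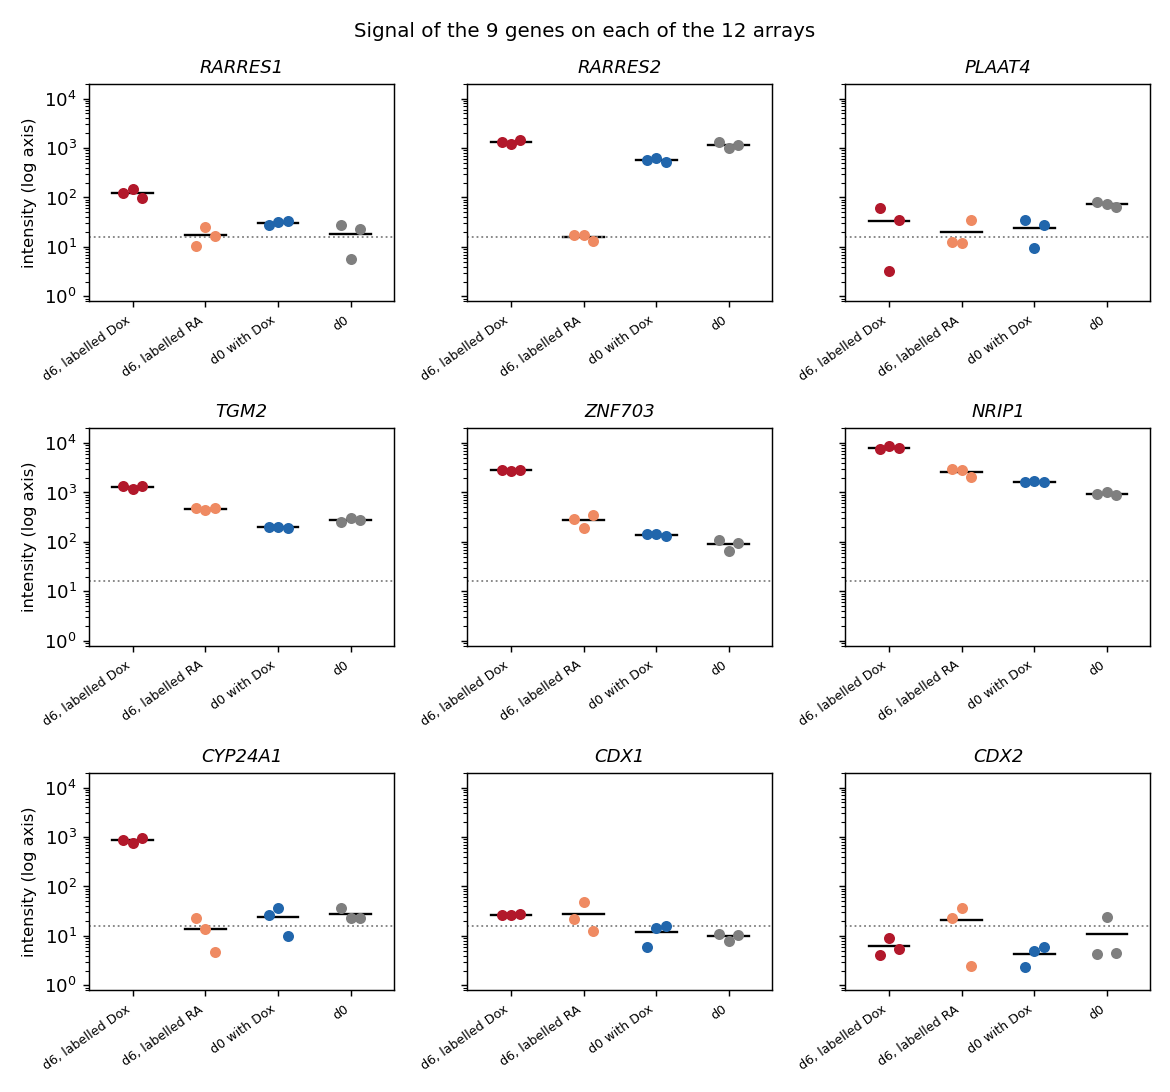
Intensity of the 9 genes on each of the 12 arrays (vertical log axis, one point per array, black bar for the group mean, dotted line at the pseudocount of 16), with the groups from left to right day 6 labelled Dox, day 6 labelled RA, d0 with Dox and d0. CYP24A1 lies at 764 to 959 in day 6 arrays labelled Dox and under 38 on the 9 other arrays, and RARRES2 lies under 18 in arrays labelled RA and above 500 elsewhere.

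RARRES2 encodes chemerin, a secreted protein that attracts immune cells and acts on fat tissue. Its signal was 1336, 1212 and 1429 in day 6 arrays labelled Dox, against 17.4, 17.8 and 13 in day 6 arrays labelled RA. In d0 with Dox it was 573, 637 and 519, against 1321, 999 and 1175 in d0. The gene was thus near the pseudocount on the 3 arrays labelled RA, and no array of any other group came near them. The day 6 difference was 5.39 ± 0.12 (limma adjusted p = 3.53e-09), and it ranged from 4.11 to 6.29 over the alternatives because the lower group lies near the pseudocount. RARRES2 fell by 0.99 ± 0.12 on the log2 scale in d0 with Dox against d0 (0.503-fold, adjusted p = 0.000657), and was lower in day 6 arrays labelled RA than in d0 (-5.20 ± 0.12, adjusted p = 1.01e-09). Day 6 arrays labelled Dox differed from d0 by 0.19 ± 0.12 (adjusted p = 0.241), with overlapping arrays. In order of the means the groups ran day 6 labelled Dox, d0, d0 with Dox and day 6 labelled RA, and only the first step did not pass the test. Alone among the 9 genes, RARRES2 was called lower both with Dox at d0 and in arrays labelled RA at day 6, each against d0. Both comparisons share the d0 arrays.

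RARRES1 encodes a membrane protein first found as induced by a synthetic retinoid in skin cells. Its signal was 124, 149.6 and 98.2 in day 6 arrays labelled Dox, against 10.6, 25 and 17 in day 6 arrays labelled RA. It was 27.6, 31.7 and 33.3 in d0 with Dox, against 27.6, 5.75 and 22.6 in d0. Only the arrays labelled Dox at day 6 stood apart, and the 9 others lay close to the pseudocount. Between the day 6 groups RARRES1 differed by 2.07 ± 0.26 (4.19-fold, limma adjusted p = 0.000247), and by 1.20 to 2.81 over the alternatives, since the lower group lies at the pseudocount. Its other 2 probe sets gave 2.21 ± 0.40 and 1.70 ± 0.40, and all 3 passed the test adjusted over all probe sets, where 15.5% of probe sets were called. Against d0, arrays labelled Dox were 4.17-fold higher (adjusted p = 7.02e-05), while arrays labelled RA differed by -0.01 ± 0.26 (adjusted p = 0.984). Between d0 with Dox and d0 the difference was 0.50 ± 0.26 (adjusted p = 0.26).

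PLAAT4, also called RARRES3 or TIG3, encodes a phospholipid-modifying enzyme that slows growth of skin cells. Its signal was 61.0, 3.22 and 35.2 in day 6 arrays labelled Dox, against 12.4, 12 and 34.6 in day 6 arrays labelled RA. In d0 with Dox it was 34.5, 9.38 and 27.8, against 82.6, 74.5 and 64.4 in d0. The 3 d0 arrays were the highest of all 12, and within each of the other groups the arrays differed more than 2-fold from each other. PLAAT4 was lower in arrays labelled RA than in d0 (-1.38 ± 0.47, limma adjusted p = 0.0311), a call lost in 6 of 21 alternatives, among them the removal of any d0 array, of RA-labelled replicate 1 or of RA-labelled replicate 2, with adjusted p up to 0.103. The differences from d0 of d0 with Dox (-1.22 ± 0.47, adjusted p = 0.127) and of day 6 arrays labelled Dox (-1.08 ± 0.47, adjusted p = 0.0844) did not pass. The first passed without replicate 2 of the arrays labelled Dox and the second without their replicate 1, with adjusted p down to 0.0362 and 0.0211 over the alternatives.

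TGM2 encodes tissue transglutaminase, an enzyme that crosslinks proteins and is induced by retinoic acid in many cell types. Its brightest probe set read 1364, 1179 and 1363 in day 6 arrays labelled Dox, against 478, 448 and 481 in day 6 arrays labelled RA. It read 198, 203 and 195 in d0 with Dox, against 249, 311 and 275 in d0. The 4 groups did not overlap at any step, and all 3 steps in the order day 6 labelled Dox, day 6 labelled RA, d0, d0 with Dox passed the test. TGM2 differed between the day 6 groups by 1.44 ± 0.09 (2.71-fold, limma adjusted p = 2.86e-06). Arrays labelled RA were higher than d0 by 0.73 ± 0.09 (1.66-fold, adjusted p = 6.27e-05). TGM2 fell by 0.45 ± 0.09 on the log2 scale with Dox at d0 (0.733-fold, adjusted p = 0.0102), a call lost with the mean of its probe sets and with the 6 arrays of the comparison alone (adjusted p up to 0.26). Its 3 dimmer probe sets gave 1.20, 1.05 and 0.28 between the day 6 groups and none of them passed. For arrays labelled RA against d0 they gave 1.13, 0.96 and -0.12, and again none passed.

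ZNF703 encodes a zinc finger repressor that is induced by retinoic acid in embryos and amplified in some breast cancers. Its brighter probe set read 2802, 2773 and 2821 in day 6 arrays labelled Dox, against 286, 196 and 355 in day 6 arrays labelled RA. It read 145, 145 and 134 in d0 with Dox, against 111, 64.6 and 96.6 in d0. No groups overlapped, and the arrays labelled Dox lay closest to each other in proportion. The day 6 difference was 3.29 ± 0.20 (9.80-fold, limma adjusted p = 2.65e-06), and 2.16 to 3.48 over the alternatives, lowest with the mean of its probe sets. Arrays labelled RA were in turn higher than d0 by 1.46 ± 0.20 (2.74-fold, adjusted p = 0.000148). For d0 with Dox against d0 the difference was 0.58 ± 0.20 (adjusted p = 0.0957), which passed in 3 alternatives, 1 of them without RA-labelled replicate 2 (adjusted p down to 0.0291). The dimmer probe set of ZNF703 gave 1.03 ± 0.39 between the day 6 groups (adjusted p over all probe sets 0.116). For arrays labelled RA against d0 it gave 0.39 ± 0.39 (0.501) with overlapping arrays, so that call rests on the brighter probe set.

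NRIP1 encodes RIP140, a corepressor that binds retinoic acid receptors and other nuclear receptors once they hold ligand, and that is itself induced by retinoic acid. Its signal was 7576, 8583 and 8107 in day 6 arrays labelled Dox, against 2948, 2844 and 2016 in day 6 arrays labelled RA. It was 1643, 1673 and 1656 in d0 with Dox, against 952, 1001 and 875 in d0. Here too the 4 groups did not overlap, and all 3 steps in this order passed the test. The day 6 difference was 1.65 ± 0.13 (3.13-fold, limma adjusted p = 1.30e-05). NRIP1 was the single gene of the 9 that rose with Dox at d0, by 0.81 ± 0.13 (1.75-fold, adjusted p = 0.00334). Arrays labelled RA were 2.70-fold higher than d0 (1.43 ± 0.13, adjusted p = 6.19e-06). The second probe set was called in the same direction in all 3 comparisons, with 1.69 ± 0.14, 0.59 ± 0.14 and 0.84 ± 0.14 in the same order. For arrays labelled RA against d0 with Dox it gave 0.25 (adjusted p over all probe sets 0.195) with overlapping arrays, so that step rests on the brighter probe set.

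CYP24A1 encodes the mitochondrial enzyme that inactivates vitamin D, and it is a strong target of the vitamin D receptor. Its signal was 886, 764 and 959 in day 6 arrays labelled Dox, against 22.8, 13.9 and 4.63 in day 6 arrays labelled RA. It was 26.4, 37.1 and 9.93 in d0 with Dox, against 36, 23.0 and 23.1 in d0. The arrays labelled Dox at day 6 stood far above the other 9, among which no difference passed the test. The day 6 difference was 4.93 ± 0.28 (30.6-fold, limma adjusted p = 1.58e-06). It lay between 3.59 and 6.10 over the alternatives, since the lower group lies near the pseudocount. The difference of arrays labelled Dox from d0 was 4.36 ± 0.28 (adjusted p = 6.06e-07). Arrays labelled RA differed from d0 by -0.57 ± 0.28 (adjusted p = 0.126) and d0 with Dox by -0.15 ± 0.28 (adjusted p = 0.811).

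CDX1 and CDX2 are homeobox genes that respond to retinoic acid and WNT signals in the posterior embryo. CDX1 read 26.8, 26 and 28.1 in day 6 arrays labelled Dox, against 21.9, 49.6 and 12.8 in day 6 arrays labelled RA. It read 5.92, 14.6 and 15.9 in d0 with Dox, against 11, 8.06 and 10.3 in d0. All 12 values lay under the array medians of 64.2 to 78.0, and 23.1% to 26.5% of probe sets on each array lay under 16. The day 6 groups overlapped and differed by 0.05 ± 0.26 (limma adjusted p = 0.924). CDX1 passed as higher than d0 in arrays labelled Dox (0.74 ± 0.26, adjusted p = 0.0364) and in arrays labelled RA (0.69 ± 0.26, adjusted p = 0.0463), and these calls were lost in 8 and 15 of 21 alternatives. They were lost without any 1 of the d0 arrays, without any 1 of the 3 arrays labelled Dox, and, for arrays labelled RA against d0, without replicate 1 or 2 of those or without replicate 2 or 3 of d0 with Dox, with adjusted p up to 0.0962 and 0.122.

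The brighter CDX2 probe set read 4.19, 8.89 and 5.48 in day 6 arrays labelled Dox, against 23.1, 36.4 and 2.44 in day 6 arrays labelled RA. It read 2.41, 4.90 and 5.85 in d0 with Dox, against 4.30, 24.6 and 4.57 in d0. Values above 16 were seen on 2 arrays labelled RA and on 1 d0 array, and each group's values overlapped those of d0. CDX2 differed between the day 6 groups by -0.60 ± 0.37 (limma adjusted p = 0.284). Without RA-labelled replicate 3, the lowest of its group, it passed with an adjusted p of 0.0322, and the difference of arrays labelled RA from d0, 0.39 ± 0.37 (adjusted p = 0.435), then passed with 0.0422. The other CDX2 probe set stayed under 16 on all arrays but 1 of d0 with Dox and gave -0.03 ± 0.25. These values do not show that either gene was off, since no detection calls were used here.

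**Figure D2:**
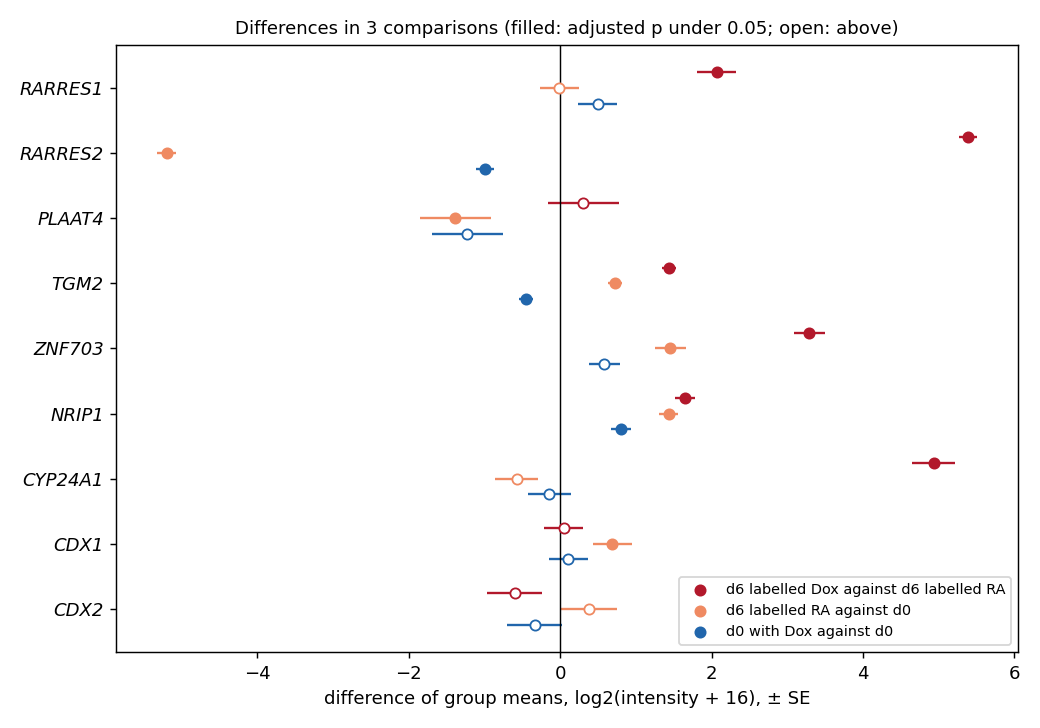
Differences of group means on the log2(intensity + 16) scale with ± SE for the 9 genes in 3 comparisons (red, day 6 labelled Dox against day 6 labelled RA; orange, day 6 labelled RA against d0; blue, d0 with Dox against d0). Filled points passed an adjusted p of 0.05, and RARRES2 has the red point at 5.39, the orange at -5.20 and the blue at -0.99.

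With Dox at d0, NRIP1 rose and RARRES2 and TGM2 fell, while the other 6 genes did not pass. Over all genes, 7.75% were called higher and 5.16% lower in this comparison. The median difference of the 9 genes was -0.15, against 0.03 over all genes. Some markers of cell state moved in the same comparison, among them NANOG at -1.09, GDF3 at -1.34, TFAP2A at 1.39, GATA3 at 0.84 and MAP2 at 1.65. Of the lists they come from, 1 of 8 pluripotency genes was called higher and 3 lower. Of 11 trophoblast and amnion genes 2 were called higher and 0 lower, and of 8 neural genes 2 higher and 1 lower. The part of these markers in the values of the 9 genes was not tested. For 6 of the 9 no array of one group fell within the range of the other, against 31.5% of all genes. For day 6 arrays labelled RA against d0, TGM2, ZNF703, NRIP1 and CDX1 passed as higher and RARRES2 and PLAAT4 as lower, 4 and 2 of 9, where 25.3% of all genes were called higher and 25.2% lower. For day 6 arrays labelled Dox against d0, 6 genes passed as higher (TGM2, ZNF703, CYP24A1, NRIP1, RARRES1 and CDX1) and 0 as lower, with 24.6% of all genes higher and 23.8% lower. The median difference of the 9 genes was 2.06 there and 0.39 for arrays labelled RA, against -0.01 over all genes in both. ZNF703 was 26.9-fold, CYP24A1 20.5-fold, NRIP1 8.46-fold and TGM2 4.49-fold higher in arrays labelled Dox than in d0. The ZNF703 difference behind this fold, 4.75, was 3.08 with the mean of its probe sets. These comparisons share the d0 arrays, and so are not independent of each other.

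Set against d0 with Dox, which shares the labelled agent, day 6 arrays labelled Dox were higher for 6 of the 9 genes and lower for 0, with 22.2% of all genes called higher and 23.9% lower. The 6 were TGM2 (6.13-fold), RARRES2 (2.27-fold), RARRES1, CYP24A1, NRIP1 and ZNF703. Arrays labelled RA were higher than d0 with Dox for TGM2, NRIP1 and ZNF703, at 1.18, 0.63 and 0.87 on the log2 scale, and lower for RARRES2, at -4.21, where 23% of all genes were called higher and 25.3% lower. The ZNF703 call was lost with the mean of its probe sets (adjusted p = 0.154), and its dimmer probe set gave 0.04. CDX1, CDX2 and PLAAT4 passed in neither. Without RA-labelled replicate 3, CDX1 and CDX2 passed as higher in arrays labelled RA than in d0 with Dox (limma adjusted p = 0.0137 and 0.00913), and CDX1 also in arrays labelled Dox. For arrays labelled Dox CDX1 passed in 5 of 21 alternatives in all, the others being without RA-labelled replicate 2, quantile normalization, median centring and the 6 arrays alone. RARRES1 passed as lower in arrays labelled RA without replicate 2 of d0 (adjusted p = 0.0411), and CYP24A1 without replicate 3 of d0 with Dox (0.0455).

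**Figure D3:**
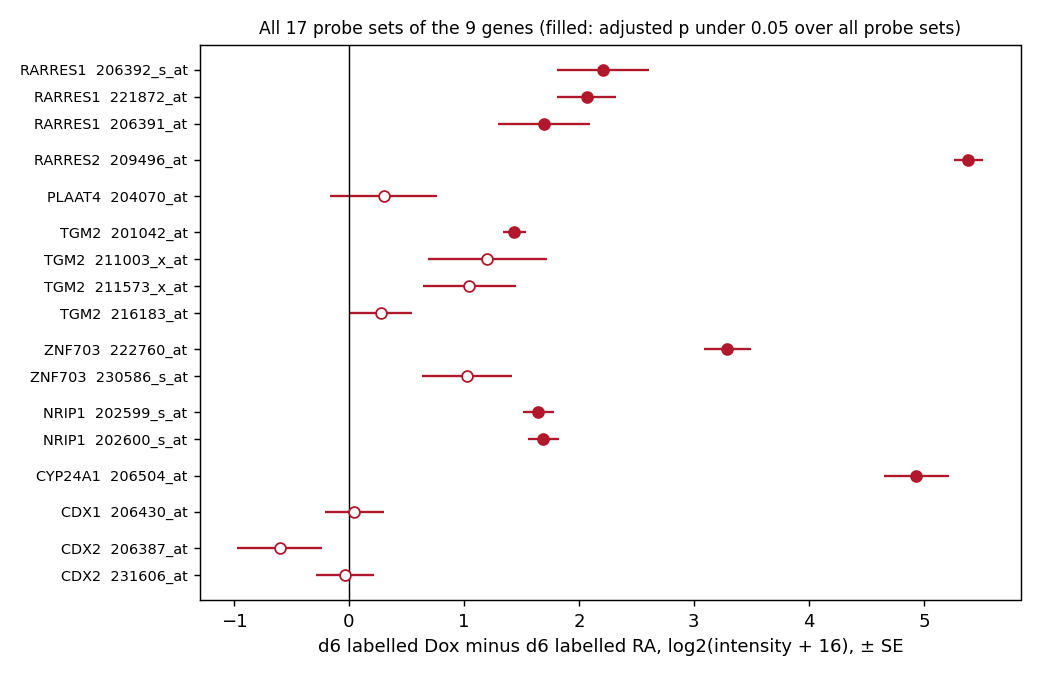
Day 6 arrays labelled Dox minus day 6 arrays labelled RA for all 17 probe sets of the 9 genes, on the log2(intensity + 16) scale with ± SE (filled, adjusted p under 0.05 over all 54675 probe sets). Of the 17, 15 lie above 0 and 9 passed as higher, and both CDX2 probe sets lie below 0.

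Read by probe set rather than by gene, 9 of 17 passed as higher in day 6 arrays labelled Dox than in those labelled RA and 0 as lower, where 7.69% of all probe sets were called higher and 7.8% lower. The 8 that did not pass were the 3 dimmer TGM2 probe sets, the dimmer one of ZNF703, the single probe sets of PLAAT4 and CDX1, and both of CDX2. Of these, 2 of TGM2 and the one of ZNF703 had arrays that did not overlap between the groups. Read by gene, 41.6% of all genes did not overlap in this comparison, and the share over all probe sets was not counted. No gene among the 9 had probe sets called in opposite directions in this comparison.

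The receptors themselves were read on the same arrays. RARB, a retinoic acid receptor that is a direct target of retinoic acid, read 1971 ± 16.4 in day 6 arrays labelled Dox against 220 ± 27.5 in those labelled RA (3.08 ± 0.19, limma adjusted p = 2.76e-06). RARA was higher by 1.01 (adjusted p = 0.00272) and VDR, the vitamin D receptor, by 0.64 ± 0.20 (567 ± 86.6 against 356 ± 29.3, adjusted p = 0.0439). RARG was dim and only just passed, at 1.05 ± 0.35 (65.0 ± 42.1 against 19.7 ± 4.26, adjusted p = 0.0497). In all 4 of 7 receptor genes passed as higher and 0 as lower, with a median of 0.64, where 13.7% of all genes were called higher and 12.2% lower. Against d0, VDR was higher in arrays labelled RA too (356 ± 29.3 against 49.5 ± 17.1, 5.83-fold), as was RARB (3.29-fold), and 4 of 7 passed as higher and 0 as lower (25.3% and 25.2% of all genes). With Dox at d0, where 7.75% of all genes were called higher, RARB was the only receptor gene called (106 ± 12.7 against 57.5 ± 20.7, 1.70-fold, adjusted p = 0.0274).

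Of 9 measured genes for retinoid synthesis, transport and breakdown, 6 passed as higher in day 6 arrays labelled Dox than in those labelled RA and 0 as lower (13.7% and 12.2% of all genes), with a median of 1.5. Beside CYP26A1 (6.70) and CYP26B1 (6.36), DHRS3, which turns retinal back to retinol, was higher by 3.10. CRABP2, which carries retinoic acid to its receptors, was higher by 2.89 (14804 ± 669 against 1991 ± 253). The list went, with Dox at d0, 3 higher and 1 lower of 9 (7.75% and 5.16% of all genes), with CRABP2 at 1.24 (1067 ± 56.8 against 442 ± 41.8), DHRS3 at 1.04 and CYP26A1 at 0.57, and with the retinoic acid-making enzyme ALDH1A3 at -1.02. In arrays labelled RA against d0, 2 were higher and 2 lower (25.3% and 25.2% of all genes), among them CRABP2 at 2.13 and CYP26A1 at -3.98 (271 ± 37.0 against 4494 ± 252).

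Among 12 measured genes of vitamin D metabolism and other vitamin D receptor targets, 3 passed as higher and 0 as lower in day 6 arrays labelled Dox against those labelled RA, with a median of -0.02. They were TRPV6, a calcium channel (251 ± 25.5 against 31.3 ± 18.4, 2.57 ± 0.47), G0S2, an inhibitor of fat breakdown (1.41), and SPP1, the bone matrix protein osteopontin (0.61). CYP27B1, which makes active vitamin D, read 47.4 ± 16.5 in arrays labelled Dox and 58.6 ± 28.8 in those labelled RA and did not pass (limma adjusted p = 0.687). Against d0, where 25.3% of all genes were called higher and 25.2% lower, arrays labelled RA had 3 higher, with THBD, the anticoagulant receptor thrombomodulin, at 1961 ± 181 against 51.3 ± 17.9 (30.0-fold), and 1 lower, CYP27B1 at -0.86. SPP1 fell by 0.45 with Dox at d0 and none of the other 11 passed. In that comparison 7.75% of all genes were called higher and 5.16% lower. The 3 of 12 higher calls at day 6 stand beside the 13.7% of all genes given above.

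Of 15 close relatives and known partners of the 9 genes, 1 was called higher and 1 lower between the day 6 groups (13.7% and 12.2% of all genes), with a median of 0.06. ZNF503, the paralog of ZNF703, was the higher one (2504 ± 58.2 in arrays labelled Dox against 734 ± 34.4 in those labelled RA, 1.75 ± 0.09, limma adjusted p = 7.14e-07). F13A1, a transglutaminase of blood clotting, was the lower one (-0.77). LXN, a relative of RARRES1, read 925 ± 88.3 against 885 ± 48.6 and did not pass. CDX4, the third CDX gene, read 5.67 ± 2.14 against 4.64 ± 1.09. Of the 15, 4 passed as higher and 3 as lower with Dox at d0, where 7.75% and 5.16% of all genes did. ZNF503 led the higher ones at 1.23, and CDX4 was higher as well (78.4 ± 10.3 against 39.5 ± 23.0, 0.84 ± 0.23, adjusted p = 0.0407). The PLAAT4 relatives PLAAT3 and PLAAT5 were lower, at -0.98 and -0.71. Against d0, arrays labelled RA had 3 higher, led by ZNF503 (2.83), and 4 lower (25.3% and 25.2% of all genes), led by PLAAT5 (-1.75) and CDX4 (-1.35).

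Since CDX genes mark the caudal embryo and the intestine, the genes of both were read as well. Of 13 measured caudal genes, 4 passed as higher in day 6 arrays labelled Dox than in those labelled RA and 0 as lower (13.7% and 12.2% of all genes). They were HOX genes, with HOXB1 at 956 ± 150 against 31.8 ± 10.9 (4.36 ± 0.20, limma adjusted p = 3.09e-07) and HOXB2 at 3.14. HOXB5 was higher by 2.45 and HOXB6 by 1.19. The more posterior HOX genes of the list, named after their values were seen, did not pass, with HOXB8 at 0.07, HOXB9 at -0.34, HOXC8 at 0.75 and HOXC9 at -0.25. HOXB1 and HOXB2 are known for the hindbrain. TBXT (79.6 ± 13.8 against 87.9 ± 34.9), TBX6 (33.8 ± 16.3 against 33.2 ± 32.2) and FGF8 (8.27 ± 8.64 against 4.85 ± 1.77) did not pass either. Against d0, 5 of the 13 were higher and 3 lower in arrays labelled Dox (24.6% and 23.8% of all genes). The lower ones were FGF8 at -3.42, CDX4 at -1.28 and TBXT at -0.94. With Dox at d0, 2 were higher and 1 lower (7.75% and 5.16% of all genes), FGF8 at -1.52. Of 9 measured intestinal genes, 0 were called in either direction between the day 6 groups, and at most 2 of 9 were called in any other comparison. These were 1 higher and 1 lower in day 6 arrays labelled Dox against d0 with Dox, where 22.2% of all genes were called higher and 23.9% lower. The intestinal genes summed to 258 to 331 in day 6 arrays labelled Dox and 256 to 338 in those labelled RA. Their sum was 311 to 423 in d0 with Dox and 304 to 373 in d0. SI, the enzyme sucrase-isomaltase, and ALPI, intestinal alkaline phosphatase, had group means under 16 in all 4 groups, and CDH17, an intestinal cadherin, read 60.5 ± 6.86 in arrays labelled Dox against 25.4 ± 10.7 in those labelled RA (adjusted p = 0.0586).

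**Figure D4:**
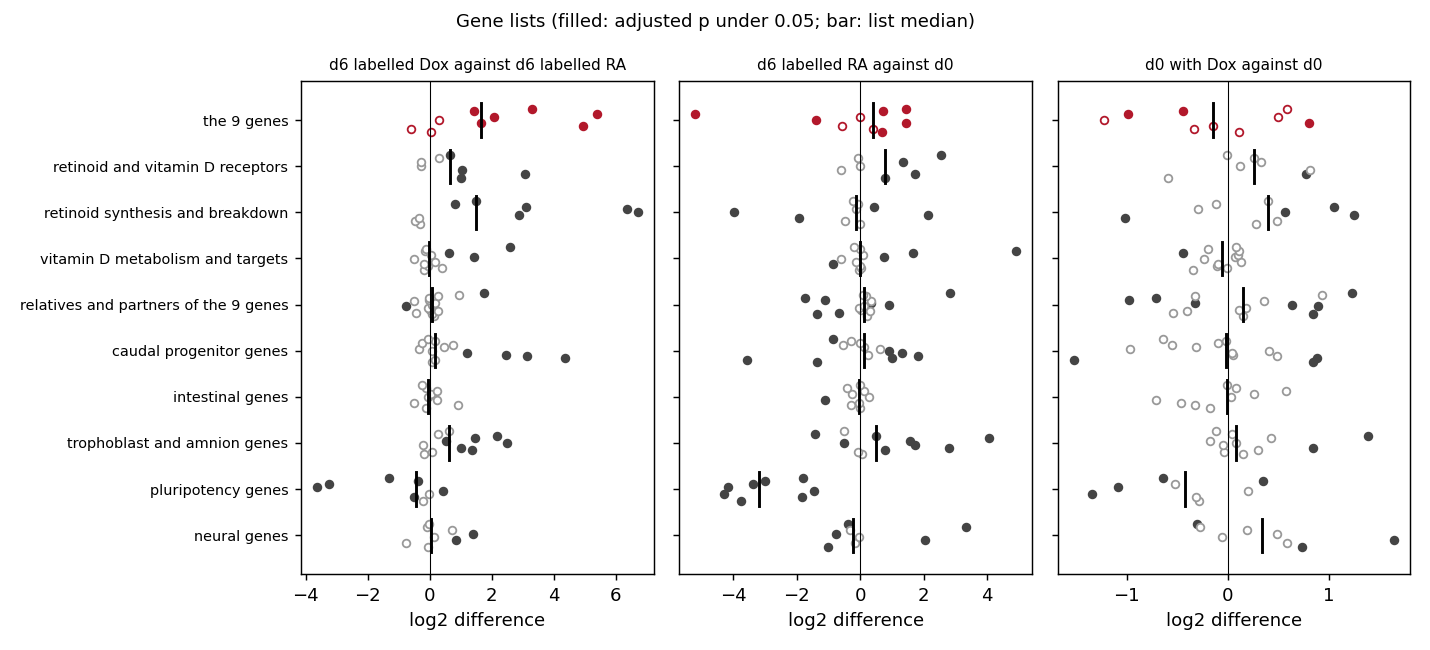
Log2 differences of the 9 genes and of 9 related gene lists in 3 comparisons, day 6 labelled Dox against day 6 labelled RA, day 6 labelled RA against d0, and d0 with Dox against d0 (one point per gene, filled where the adjusted p was under 0.05, bar at the list median). In the left panel the 9 genes have the median 1.65, genes of retinoid synthesis and breakdown 1.5, and intestinal genes -0.07.

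Markers of other cell states moved between the same groups. Of 11 measured trophoblast and amnion genes, 6 passed as higher in day 6 arrays labelled Dox than in those labelled RA and 0 as lower (13.7% and 12.2% of all genes), with TFAP2A at 1900 ± 309 against 409 ± 54.0 and ISL1 at 443 ± 38.1 against 65.6 ± 12.1. Their summed signal was 47467 to 49238 in arrays labelled Dox, 29121 to 30325 in those labelled RA, 10109 to 10520 in d0 with Dox and 9245 to 11636 in d0. CGA and ELF5 of this list had group means under 16 in all 4 groups. Of 8 pluripotency genes, 1 was higher (LIN28A) and 5 lower in arrays labelled Dox than in those labelled RA, beside the same shares of all genes, with NANOG at 36.7 ± 3.28 against 639.8 ± 46.0 and PRDM14 at 14.1 ± 6.44 against 266 ± 20.2. Their summed signal was 16840 to 17620 in arrays labelled Dox and 18015 to 20177 in those labelled RA, against 86173 to 90454 in d0 with Dox and 92856 to 102238 in d0. All 8 were lower than d0 in arrays labelled RA and also in arrays labelled Dox. Of all genes, 25.2% and 23.8% were called lower in these comparisons. Of 8 neural genes, 2 passed as higher (PAX6 and MAP2) and 0 as lower between the day 6 groups, again beside 13.7% and 12.2% of all genes. The part of these markers in the values of the 9 genes was not tested.

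For each of the 9, the genes most like it over the 12 arrays were listed by Pearson correlation of log2 signals, which includes the differences between groups and is given as a description. ZNF703 was most like RARB (r = 0.996), followed by METRN and IGFBP6. NRIP1 was most like CRABP2 (0.994), followed by CNTN4 and RGS5. RARRES2 was most like IQGAP2 (0.991), which averaged 5518 in day 6 arrays labelled Dox, 834 in those labelled RA, 4368 in d0 with Dox and 5191 in d0, followed by ARHGEF26 and RUNX1T1. CYP24A1 was most like GUCY1B1 (0.993), HAPLN1 and TFPI2, and TGM2 most like SLC4A4 (0.993), CDV3 and NIBAN1. RARRES1 was most like PAAF1 (0.971), NRXN3 and TSPAN18. The dim genes had weaker likeness, with SLC25A25 at 0.936 for PLAAT4, NNT at 0.898 for CDX1 and SLC16A7 at 0.848 for CDX2. Among the 9 themselves, NRIP1 and ZNF703 were the most alike (0.959), followed by TGM2 and ZNF703 (0.940), RARRES1 and CYP24A1 (0.909) and CYP24A1 and ZNF703 (0.908). RARRES2 and NRIP1 had an r of 0.034. All of these rest on 12 arrays in 4 groups and share the differences between those groups.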

How the data were processed

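Biotin-labelled total RNA of H9 cells was read on 12 arrays, in 4 groups of 3 taken from the sample titles. The authors deposited probe set intensities on a linear scale. Their background correction, probe summary and scaling are not given in the sources used here. The mean with 2% of probe sets trimmed at either end was 500.1 on every array, so signals are relative to the rest of an array. Array medians were 64.2 to 78.0, and precision is limited by the number of arrays.

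The platform annotation listed 42898 of the 54675 probe sets, 41097 with a single gene symbol and 1801 with several, which named no gene. Symbols were updated through gene IDs for 41043. Each gene was read by the brightest of its single-symbol probe sets (by mean log2 signal), a choice that can set the direction where they disagree, which NR6A1 shows. Intensities were analysed as log2(intensity + 16), which understates changes of dim genes. limma 3.58.1 (R 4.3.3; lmFit and eBayes) was fitted to all 12 arrays with 4 group means and 8 residual degrees of freedom. p-values were adjusted by Benjamini-Hochberg over 19775 genes, or over all probe sets where probe sets are tested. Tables, motif searches and figures used Python 3.11.15. In simulated data for d0 with Dox against d0 with 19775 genes, 11 of 50 genes changed 1.25-fold were recovered and 34 of 50 at 1.5-fold. At 2-fold 48 of 50 were recovered and at 4-fold 50 of 50, with 9 false calls in all. The changed genes were drawn only from genes at or above the median mean. These shares therefore do not cover dimmer genes, PLAAT4, CDX1 and CDX2 among them.

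The 9 genes and the gene lists were chosen with earlier results of these data known. Named genes were the 9, up to 2 of each list with the largest called rises and falls in any of the comparisons, list genes whose level was needed near the floor, genes that check the labels, and the 3 genes most like each of the 9 among genes at or above the median mean. HOXB5, HOXB8, HOXB9, HOXC8, HOXC9, TBXT and TBX6 were added after their values were seen. Same-numbered arrays of different groups had deviations correlated at r = -0.0084 to 0.048, with 0 of 18 pairs above 0.1. The main fit did not pair the arrays by number. Correlations over all genes cannot exclude a culture or batch shared by same-numbered arrays. Alternatives were quantile normalization, median centring, pseudocounts of 1 and 64, the mean over the probe sets of each gene, the brighter genes alone (mean at or above the median), array weights, a trended robust variance, a fit to only the 6 arrays compared, the replicate block, and leaving out each array in turn. Array batches were not tested, since no scan dates were used here.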

Additional observations from a re-analysis of the deposited data

How the results depend on the processing

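The 54 differences of the 9 genes (9 genes in 6 comparisons) were recomputed under 22 alternatives, 12 of which left out an array. Of 1158 such values, 1107 kept their direction and their side of the threshold or were uncalled throughout, 32 lost a call, 19 gained one and 0 called values turned their sign. The 6 calls between the day 6 groups held in every alternative that tested the gene. Calls that were lost or gained were those of PLAAT4, CDX1, CDX2, ZNF703 and TGM2 named with their results, and against d0 with Dox those of RARRES1, CYP24A1, ZNF703, CDX1 and CDX2. Testing only genes at or above the median mean left 4 of the 9, so 3 rather than 6 were then called for day 6 arrays labelled Dox against d0. With the 6 arrays of the comparison alone, 1522 rather than 2552 genes were called with Dox at d0. With the mean of its probe sets, NR6A1 reversed to -0.47 (adjusted p = 0.00625) between the day 6 groups and to 0.22 (adjusted p = 0.0928) for arrays labelled RA against d0, which follows from the disagreement among its probe sets. Median centring moved the median of all genes for day 6 labelled Dox against d0 with Dox to 0.11 from -0.03, and the calls to 5407 higher and 3606 lower from 4392 and 4728. With the replicate block, genes called numbered 2296 with Dox at d0 (against 2552), 4901 between the day 6 groups (5120), 9916 for arrays labelled RA against d0 (9993) and 9499 for arrays labelled Dox against d0 (9585). It ended the CDX1 call for arrays labelled RA against d0 and made the PLAAT4 call for arrays labelled Dox against d0. Signal over background limits CDX1 and CDX2 in all groups and PLAAT4 in the 3 groups other than d0. It limits RARRES1 and CYP24A1 in the 3 groups other than day 6 labelled Dox, and RARRES2 in day 6 arrays labelled RA. All of these lie at or near the pseudocount.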

Other observations

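The measured protein-coding genes that flank the 9 genes, 18 in all by the order of genes in assembly GRCh38.p14, were read after the values of the 9 were known. Between day 6 arrays labelled Dox and those labelled RA, 3 of the 18 passed as higher and 3 as lower, near the 13.7% and 12.2% of all genes. KIAA1755, beside TGM2, was the one with the largest difference, at 388 ± 6.89 in arrays labelled Dox against 63.1 ± 1.26 in those labelled RA (2.35 ± 0.06, limma adjusted p = 5.59e-09, n = 3 each). Its signal was 2.93 ± 0.708 in d0 with Dox against 2.11 ± 0.653 in d0. REPIN1, beside RARRES2, and USP25, beside NRIP1, were higher by 0.66 and 0.26. PDGFRB, beside CDX1, was lower (-0.96), as were MFSD1, beside RARRES1 (-0.34), and ERLIN2, beside ZNF703 (-0.31). Both flanking genes of CYP24A1, BCAS1 and PFDN4, did not pass (0.26 and 0.17), nor did LRRC61 on the other side of RARRES2 (-0.01). With Dox at d0, where 7.75% of all genes were called higher and 5.16% lower, 1 of the 18 passed as higher (LXN, beside RARRES1) and 1 as lower (LGALS12, beside PLAAT4, -0.88, with a mean under 16 in d0 with Dox).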
